A study of Oryza sativa with 48 samples.

Results

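The root of wild-type rice seedlings after 72 h in salt was compared with the same root after 6 h in salt. The 6 libraries, 3 for each hour, were chosen by their labels from the 48 of the series. All carried the genotype labelled Kitaake_WT and had 100 mM NaCl in the hydroponic solution from day 11 of growth. Each library was made from 3 plants grown at 28 °C with 12 h of light a day and 60% humidity, so it averages over plants and over every cell type of the root. The other groups used for comparison were WT root before salt (0 h, no NaCl) and after 1 h, root of the genotype labelled aoc at 0, 1, 6 and 72 h, and WT 2nd leaf at 0, 6 and 72 h, with 3 libraries each. The labels do not say how the aoc line was made, in which background, or whether it is 1 clone. Of the 35667 gene identifiers in the deposited table, 26195 had enough reads to be tested in root, and all of them enter the counts below.

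Salt reaches a root in overlapping phases. The first is a loss of water uptake as the solution turns osmotically stronger, and the later one is a slow build-up of sodium that the plant must keep out of its shoot, store in vacuoles or pump back out. A difference between a late and an early hour in salt therefore holds both what faded after the first phase and what began afterwards. Jasmonates are stress hormones of plants, and the letters AOC usually stand for allene oxide cyclase, which acts in making them.

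The files do not pair the identifiers with gene names, so no identifier is given a name or a function here, and at most 2 identifiers per direction are printed. For the same reason the tissue label was not checked against marker genes, and the share of other tissues in the root libraries was not tested. Total counts lay between 29.2 M and 37.6 M in the 6 libraries. Replicates of 1 hour correlated across identifiers at r = 0.974 to 0.981 on log2 CPM (each count per 1 M of its library's TMM-scaled total), while libraries of different hours correlated at 0.935 to 0.958. The median SD between replicates was 0.191 log2 units at 6 h and 0.216 at 72 h.

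WT root at 72 h differed from WT root at 6 h at 3995 identifiers (15.3% of those tested), of which 1831 were higher at 72 h (6.99%) and 2164 were lower (8.26%), by edgeR's quasi-likelihood test with a Benjamini-Hochberg adjusted p under 0.05. The falls were the larger changes by their medians, though not among identifiers with a mean under 1 CPM. Among the identifiers that fell, the median log2 fold change was -1.19 (quartiles -1.90 and -0.73) and 1278 fell at least 2-fold (59.1%). The median among those that rose was 0.67 (quartiles 0.41 and 1.18), and 580 rose at least 2-fold (31.7%). Changes of at least 8-fold numbered 232 among the falls and 67 among the rises. The median over all identifiers tested was 0.01. Without regard to a test, all 3 libraries of 72 h lay above all 3 of 6 h at 3932 identifiers (15.0%) and below at 4051 (15.5%).

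The number of calls depended on single libraries and on the libraries that shared the estimate of the spread. Dropping replicate 3 of WT 6 h left 2469 and dropping replicate 1 of WT 72 h left 2499. It was 1917 (697 higher, 1220 lower) when only these 6 libraries were fitted. Plants of 72 h were older than those of 6 h and no unsalted plants of those ages were used here, so age cannot be told apart from time in salt. The labels give no hour of day for the harvests. In whole roots, fewer cells of a type and less RNA per cell cannot be told apart either.

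**Figure D1:**
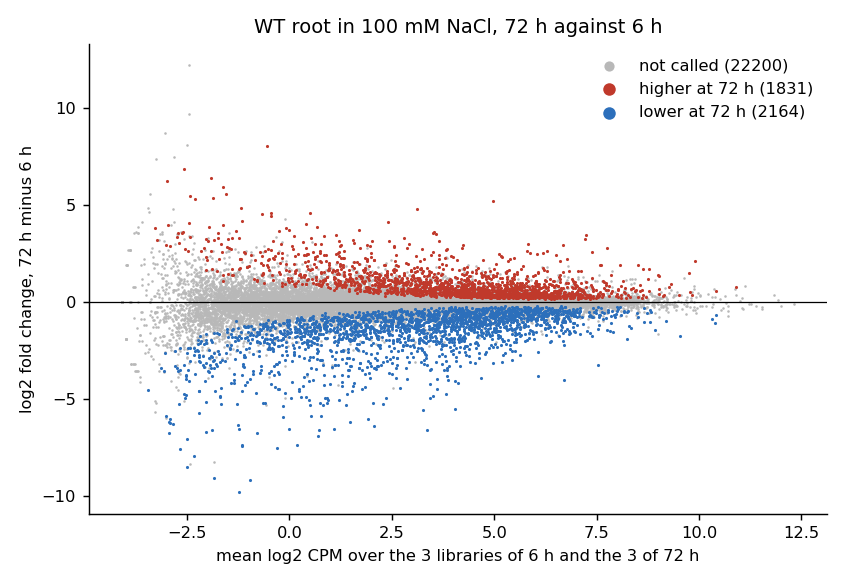
Log2 fold change of each of 26195 identifiers in WT root, 72 h minus 6 h (vertical axis), against its mean log2 CPM over the 6 libraries (horizontal axis). Red points were called higher at 72 h (1831), blue points lower (2164) and grey points neither, and blue points reach farther from 0 than red ones over most of the range.

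Falls and rises had different places on the scale of abundance, as the plot of fold change against abundance shows. Among identifiers with a mean under 1 CPM over all 24 root libraries, 217 of 3587 fell (6.05%) and 95 rose (2.65%). The median log2 fold change there was -2.42 for these falls and 2.55 for these rises. From 1 to 10 CPM, 766 of 8306 fell (9.22%) and 492 rose (5.92%). From 10 to 100 CPM the numbers were close, with 1011 falls and 1031 rises of 12074. Above 100 CPM, rises outnumbered falls, 213 to 170 of 2228. The rises above 100 CPM were small, with a median log2 fold change of 0.50, and the falls there had a median of -0.72.

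As shares of all reads, the 1831 identifiers that rose took up 7.08% ± 0.117 (SD, n = 3) of a library at 6 h and 11.5% ± 0.577 at 72 h. Before salt they held 10.1% ± 0.229. The 2164 that fell held 9.64% ± 0.816 at 6 h, 4.85% ± 0.382 at 72 h and 6.19% ± 0.359 before salt. The libraries of 0 h are on neither side of the comparison that chose the members, though they entered the fit that set its filter, scaling and spread. For both sets the share before salt lay between those of 6 and 72 h. The members were chosen by their levels at these 2 hours, so the direction between them is built in. A share in between at another hour is favoured by that choice. At 1 h the rises held 8.20% ± 0.237 and the falls 9.70% ± 0.342, the latter slightly above their mean share at 6 h.

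The rise that ranked first, among called identifiers with at least 5 CPM at the higher hour and no overlap between the hours, was that of Os01g0968100 on chromosome 1. Os01g0968100 had 0, 0.0285 and 0.0322 CPM in the 6 h libraries, which is 2 reads in all, and 9.49, 4.61 and 5.02 CPM in the 72 h libraries, which is 616 reads. The 72 h level was 307 times that of 6 h (95% interval from counting error 85 to 2537), with an edgeR adjusted p of 0.00310. It was also nearly absent earlier, with 1 read over the 3 libraries of 0 h and 0 reads over those of 1 h. In aoc root it was not absent before salt, at 0.619 ± 0.952 CPM (SD, n = 3). There its 6 h level was 1.26 ± 1.54 CPM and its 72 h level 4.61 ± 1.65 CPM (log2 fold change 1.86 ± 0.99 SE, edgeR adjusted p = 0.263). The difference between the genotypes' changes (aoc minus WT) was -6.20 ± 1.99 SE log2 units and was not called (edgeR adjusted p = 0.636). The 3 aoc libraries of 0 h ranged from 0.0300 to 1.72 CPM.

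Os05g0382200, on chromosome 5, ranked second among the rises and was far more abundant. It was at 5.15, 4.45 and 6.02 CPM in the 6 h libraries and at 225, 143 and 215 CPM in those of 72 h. The log2 fold change was 5.22, with an SE of 0.57 and an edgeR adjusted p of 3.51e-05. The hours were far apart, and each hour's replicates stayed within a narrow range. Its level had been 4.42 ± 0.547 CPM before salt and 1.62 ± 0.499 CPM at 1 h (SD, n = 3), so the 72 h level stood above every earlier hour. In aoc root it went from 5.92 ± 3.38 to 179 ± 56.4 CPM between the same hours (log2 fold change 4.92 ± 0.56, edgeR adjusted p = 5.99e-05).

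Os02g0824100, on chromosome 2, led the falls. Its 6 h libraries held 9.46, 0.343 and 14.4 CPM, and its 72 h libraries held 0, 0 and 0.0320 CPM, or 1 read in all. The 6 h level was 777 times that of 72 h (95% interval from counting error 139 to 30714), with an edgeR adjusted p of 0.000925. Replicate 2 of 6 h was far below the other two, though still above each 72 h library. Before salt 4 reads were found over 3 libraries, and at 1 h the level was 0.558 ± 0.0348 CPM (SD, n = 3). In aoc root its 6 h level was 0.503 ± 0.334 CPM and its 72 h level 0.420 ± 0.572 CPM (edgeR adjusted p = 0.917). The difference between the genotypes' changes (aoc minus WT) was 8.95 ± 2.01 SE log2 units and was not called (edgeR adjusted p = 0.452).

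Os05g0162800, on chromosome 5, was second among the falls and had the same uneven 6 h level. It was at 16.2, 0.457 and 34.3 CPM at 6 h and at 0, 0.230 and 0 CPM at 72 h. The log2 fold change was -7.55, with an SE of 1.40 and an edgeR adjusted p of 0.00353. With these 6 libraries alone in the fit its adjusted p was 0.0535. The fitted value was -6.53 when replicate 3 of WT 6 h was left out. When replicate 2 of WT 72 h was left out, which held all 9 reads of 72 h, it was -12.16, fitted against no read at that hour and so no measure of size. It was at 3 reads over the 3 libraries before salt and at 0.188 ± 0.0902 CPM at 1 h (SD, n = 3). The 12 aoc root libraries of all hours held 1 read of it in all, at 6 h. The difference between the genotypes' changes was not called (edgeR adjusted p = 0.997), and with so few aoc reads it could not be sized (SE 146).

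**Figure D2:**
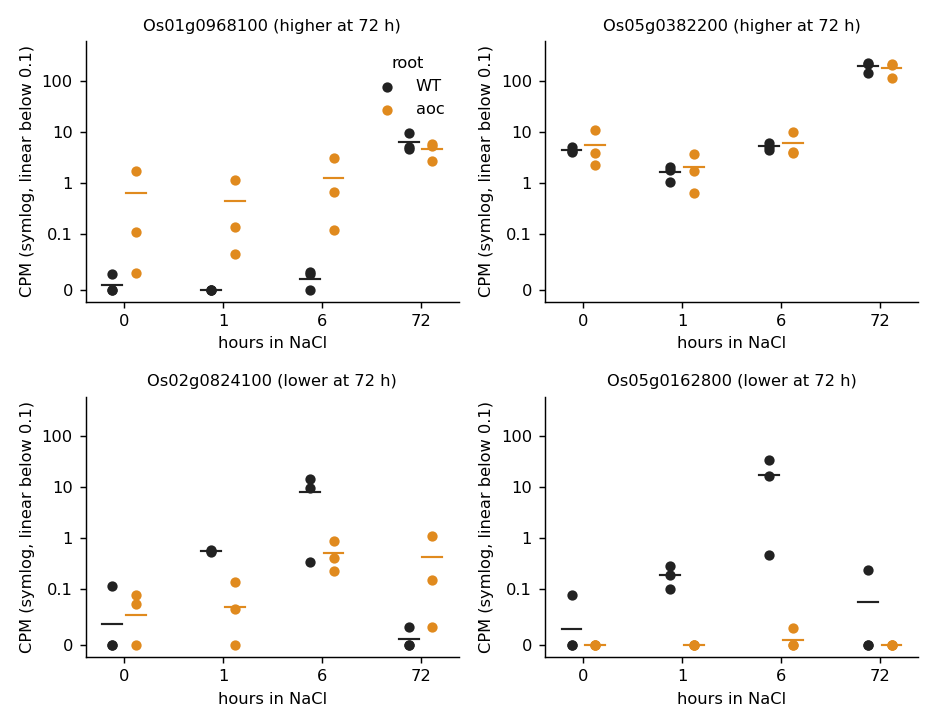
CPM of the 4 printed identifiers in each root library by hours in NaCl (horizontal axis, not to scale), for WT (black) and aoc (orange), with short bars for group means and a vertical axis that is logarithmic above 0.1 and linear below. In WT both upper panels are highest at 72 h and both lower panels at 6 h, where 1 of the 3 libraries, at 0.343 and 0.457 CPM, is far below the others.

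That library, WT 6 h replicate 2, was the lowest of the 3 libraries of 6 h at 169 of the 232 identifiers that fell at least 8-fold (72.8%). WT 6 h replicate 3 was the highest at 166 of them (71.6%). Over all tested identifiers the first was the lowest of the 3 at 34.9% and the second the highest at 37.9%. The median level of these 232 identifiers was 5.82, 2.40 and 9.34 CPM in replicates 1, 2 and 3 of 6 h, and 0.238, 0.282 and 0.256 CPM in those of 72 h. The early libraries thus differed in how high these transcripts stood, while their low level at 72 h follows from how they were picked. What set the 6 h replicates apart was not tested. Without WT 6 h replicate 2 the calls numbered 2926 (1249 higher, 1677 lower).

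Other members at the top of the 2 rankings followed several courses. The third rise, on chromosome 6, dipped at 6 h: it stood at 74.3, 143 and 136 CPM before salt, at 1.60, 1.68 and 2.74 CPM at 6 h and at 79.6, 8.04 and 79.02 CPM at 72 h (log2 fold change 4.79 ± 0.93 SE, edgeR adjusted p = 0.00222). The 72 h libraries lay above those of 6 h, with replicate 2 far below the other two. The eleventh rise, on chromosome 4, dipped too, and went from 2.98, 6.14 and 1.90 CPM at 6 h to 51.5, 39.9 and 37.2 CPM at 72 h, after 80.7 ± 47.1 CPM before salt (SD, n = 3; edgeR adjusted p = 0.000698). The sixth fall, on chromosome 1, was a pulse at 6 h, with 105, 40.3 and 183 CPM at 6 h and 0.952, 1.46 and 0.927 CPM at 72 h (log2 fold change -6.59 ± 0.89, edgeR adjusted p = 0.000168). It had been at 0.127 ± 0.0594 CPM before salt and at 0.266 CPM on average at 1 h. The seventh fall, on chromosome 5, was no pulse: its mean was 43.7 ± 40.2 CPM before salt and 18.01 ± 13.99 CPM at 6 h, with wide and overlapping replicates, and 0.196 ± 0.214 CPM at 72 h (SD, n = 3; edgeR adjusted p for 72 h against 6 h = 0.0214).

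The 12 largest rises had log2 fold changes of 3.48 to 8.06 and were at 5.97 to 621 CPM at 72 h. Their 0 h level lay on the 72 h side of the midpoint in 8 of 12, against 58.8% of all rises. The 12 largest falls had log2 fold changes of -9.19 to -6.03 and were at 5.95 to 109 CPM at 6 h and 0.0107 to 1.11 CPM at 72 h. The 0 h level of these falls lay on the 72 h side in 10 of 12, against 64.5% of all falls. In aoc root 7 of the 12 rises and 6 of the 12 falls were called in the same direction. The fitted values of the other 11 had the same sign there without passing the test, and some were near 0, such as that of Os02g0824100 at -0.25. Among all WT rises 35.2% were called higher in aoc root, and among all WT falls 37.3% were called lower. Of all tested identifiers, 4.41% were called higher in aoc root and 4.86% lower. The rises ranked 8, 10 and 12 were far more abundant in WT leaf than in root, with leaf means of 248, 439.5 and 17649 CPM at 72 h against root means of 15.1, 46.1 and 621 CPM. All 3 were lower in leaf too at 6 h than at 0 or 72 h, on average. Ranks 10 and 12 were highest in root 72 h replicate 3, at 91.3 and 1238 CPM, and whether leaf transcripts entered these libraries was not tested.

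In absolute terms the largest differences were among already abundant transcripts. The largest gain, on chromosome 11, went from 943, 384 and 252 CPM at 6 h to 3866, 1602 and 1298 CPM at 72 h (log2 fold change 2.10 ± 0.60 SE, edgeR adjusted p = 0.0242). All the 72 h libraries lay above those of 6 h, with replicate 1 the highest at both hours. The next gain, on chromosome 4, went from 1053, 1399 and 1977 CPM to 2503, 2584 and 2606 CPM and had been at 2183 ± 282 CPM before salt (SD, n = 3; edgeR adjusted p = 0.00770). The largest loss, on chromosome 3, went from 1723, 2068 and 2142 CPM at 6 h to 804, 999.5 and 963 CPM at 72 h (edgeR adjusted p = 0.000555). Before salt its libraries were at 945, 1136 and 1267 CPM (1116 ± 162), which overlaps those of 72 h. The next loss, also on chromosome 3, went from 949, 1542 and 1808 CPM to 264, 436 and 563 CPM, after 939 ± 175 CPM before salt (edgeR adjusted p = 0.000498).

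Some of the changed identifiers stood next to each other in the order of their numbers, which follows the chromosomes. Of those that fell, 611 (28.2%) had a neighbour among the tested identifiers that fell too, and of those that rose, 407 (22.2%) had a neighbour that rose. Over all tested identifiers, called or not, 15.7% had an adjacent identifier that fell and 13.4% one that rose. Whether neighbours changed together more than other pairs was not tested. Runs of at least 4 numbered 14 among the falls and 7 among the rises, and the longest held 5. Whether reads of overlapping or near-identical genes were split between neighbours is not known, since no source used here gives the counting tool or its strand setting.

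A run of 4 on chromosome 9 fell most, with log2 fold changes of -7.38 to -3.70. Its summed level was 199.7, 51.2 and 266 CPM in the 6 h libraries and 5.58, 9.68 and 9.17 CPM in those of 72 h, after 4.02 CPM on average before salt, and all 4 members were called lower in aoc root too. On chromosome 8 a run of 5 went from 145, 80.8 and 219 CPM to 12.0, 18.7 and 27.6 CPM in sum, with 3 of 5 called lower in aoc root. A run of 4 on chromosome 7 went from 159.5, 148 and 167 CPM to 28.1, 51.1 and 42.6 CPM, close to its 38.2 CPM before salt, and all 4 were called lower in aoc root. In each of these runs the libraries of the 2 hours did not overlap. Of all WT falls, 37.3% were called lower in aoc root.

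Among the rises, the run of 5 on chromosome 1 that begins with Os01g0968100 went from 36.0, 31.3 and 32.4 CPM at 6 h to 131, 131 and 144 CPM at 72 h in sum. Its members rose by 0.55 to 8.06 on the log2 scale, and 1 of the 5 was called higher in aoc root. Another run on chromosome 1, of 4, went from 141, 47.4 and 144 CPM to 233, 1155 and 797 CPM, with 1 of 4 called higher in aoc root. A run of 4 on chromosome 3 rose less but in both genotypes, from 52.7, 59.4 and 59.7 CPM to 115, 84.1 and 89.8 CPM, after 88.0 CPM before salt, with 4 of 4 called higher in aoc root. Of all WT rises, 35.2% were called higher in aoc root.

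The level before salt shows how far 72 h lay from the start. On a scale where 0 is the mean log2 CPM at 6 h and 1 that at 72 h, the 0 h level of the identifiers that rose had a median of 0.62 (quartiles 0.26 and 1.02), and that of the identifiers that fell 0.73 (quartiles 0.29 and 1.09). The 0 h level was nearer to 72 h than to 6 h for 1076 of the 1831 that rose (58.8%) and 1395 of the 2164 that fell (64.5%). It lay beyond the 72 h level for 486 and 681 of them, and beyond the 6 h level for 210 and 301. For these last, the 72 h mean lay farther from the 0 h mean than the 6 h mean did. Whether their levels at 0 and 6 h differed was not tested. Both sets together held 2471 identifiers with the 0 h level nearer to 72 h, which became 1634 once replicate 3 of WT 6 h was dropped and 1497 once replicate 1 of WT 72 h was, as the calls themselves grew fewer.

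The level at 1 h was placed differently. Its median place was 0.24 for the rises and 0.22 for the falls, and it was nearer to 72 h for 36.8% and 34.6% of them. Of the 4 hours in WT root, 6 h had the lowest mean for 1077 of the rises (58.8%), 1 h for 646 (35.3%) and 0 h for 108 (5.90%). Among the falls, 6 h had the highest mean for 1218 (56.3%), 1 h for 750 (34.7%) and 0 h for 196 (9.06%). Over all identifiers tested, 6 h was the lowest hour for 21.0% and the highest for 21.7%. For 1 h these shares were 33.1% and 28.4%, and for 0 h 24.2% and 23.5%. The choice of the members by their difference at 6 and 72 h raises both shares for 6 h, so these are a description.

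**Figure D3:**
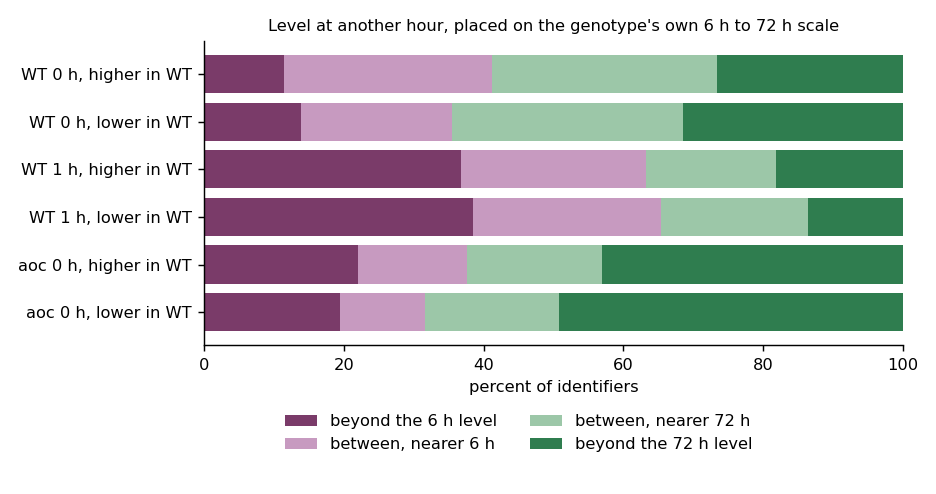
Percent of identifiers (horizontal axis) by where their level at another hour lay on the 6 h to 72 h scale of log2 CPM, for WT 0 h, WT 1 h and, on the scale of aoc's own 6 and 72 h, aoc 0 h, each for the identifiers that were higher or lower at 72 h in WT. Green parts are on the 72 h side, which holds 58.8% and 64.5% at WT 0 h but 36.8% and 34.6% at WT 1 h. The members were chosen by their WT change, so the aoc bars cannot be set against the WT bars.

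The same hours were compared in aoc root, from libraries on neither side of the WT comparison. Between 6 and 72 h, 1156 identifiers were higher (4.41%) and 1272 lower (4.86%) in aoc root. Of the 1831 that rose in WT, 1748 had a positive log2 fold change in aoc (95.5%) and 645 were called higher there, which is 35.2% of the WT list and 55.8% of the aoc list. Of the 2164 that fell in WT, 2029 had a negative one (93.8%) and 807 were called lower, 37.3% of the WT list and 63.4% of the aoc list. Over all tested identifiers, 49.7% had a positive log2 fold change in aoc and 50.2% a negative one. The genotypes' calls went in opposite directions at 1 identifier. The calls of both genotypes rest on the spread over all 24 root libraries. With each pair of groups fitted alone 181 rather than 1452 were called in the same direction in both, with 297 rather than 2428 called in aoc. The aoc calls numbered 845 when replicate 1 of aoc 6 h was left out, 1253 when replicate 1 of aoc 72 h was, and 1378 when replicate 3 of aoc 72 h was. For the first and second of these, the calls common to both genotypes numbered 645 and 759.

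The sizes differed with the genotype in which the list was drawn. The WT rises had a median log2 fold change of 0.67 in WT and 0.40 in aoc, and the WT falls -1.19 in WT and -0.64 in aoc. The aoc rises had a median of 0.75 in aoc and 0.56 in WT, and the aoc falls -1.03 in aoc and -0.83 in WT. Each list was thus larger in the genotype that chose it. The difference between the 2 changes was called at 0 of 26195 identifiers (0.0%) by edgeR's interaction test, with 1753 at an unadjusted p under 0.05 (6.69%) and 23 by DESeq2. It was called at 12 without WT 6 h replicate 2 and at 6 without aoc 72 h replicate 1. With all root libraries in the fit, the smallest edgeR adjusted p was 0.409. The lack of calls therefore does not show that the changes were alike.

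**Figure D4:**
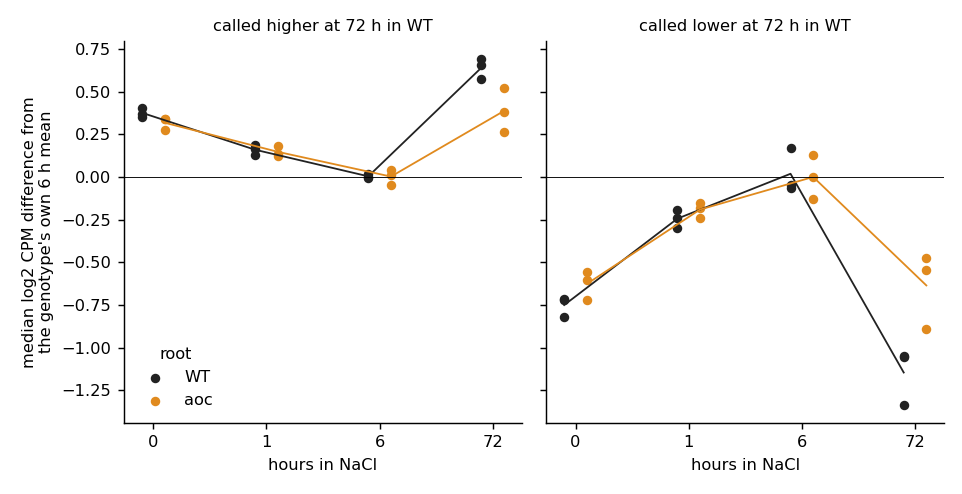
Median difference in log2 CPM from the same genotype's mean at 6 h (vertical axis) in each root library by hours in NaCl (horizontal axis, not to scale), for identifiers called higher (left) or lower (right) at 72 h in WT, with WT black, aoc orange and lines through group means. Both sets bend at 6 h in both genotypes, and the WT points lie farther from 0 at 72 h than the aoc points. The members were chosen by the WT libraries of 6 and 72 h, which favours both features in WT.

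The plot by hour shows the course of both sets in each genotype. In WT, the median identifier of the rises stood 0.38 ± 0.02 log2 units above its 6 h level before salt and 0.64 ± 0.06 above it at 72 h (SD, n = 3). In aoc the same identifiers stood 0.32 ± 0.04 above before salt and 0.39 ± 0.13 above at 72 h. The falls stood at -0.75 ± 0.06 before salt and -1.15 ± 0.17 at 72 h in WT, and at -0.63 ± 0.09 and -0.64 ± 0.22 in aoc. Because WT at 6 and 72 h chose the members, larger WT values at 72 h are favoured and are no measure of a genotype difference. Placed on aoc's own scale, over the 1735 rises and 2046 falls whose aoc means changed in the WT direction, the 0 h level had a median of 0.82 and 0.98. These places cannot be set against those of WT. The members were chosen by their WT change, and the shorter aoc scale stretches the places on it. In aoc, whose libraries are on neither side of the WT comparison but share its fit, the share of reads held by the falls was 9.29% ± 1.02 at 6 h and 5.84% ± 0.740 at 72 h, after 6.04% ± 0.306 before salt. The share held by the rises was 7.26% ± 0.291 at 6 h, 10.3% ± 0.822 at 72 h and 10.1% ± 0.138 before salt.

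WT leaf changed at more identifiers between the same hours, with 3967 higher (16.3%) and 3392 lower (13.9%) of 24317 tested. The root rises leaned the same way in leaf, and the root falls did not. Of the root rises, 1634 were tested in leaf, and 407 of these were higher in leaf too (24.9%, against 16.3% of all) and 124 lower (7.59%, against 13.9%). Of the root falls, 1847 were tested in leaf, and 277 were lower there (15.0%) and 350 higher (18.9%), shares near those of all leaf identifiers. The median log2 fold change in leaf was 0.17 for the root rises and 0.02 for the root falls, against -0.06 over all identifiers tested in leaf. Root and leaf RNA were extracted with different kits, per the labels, so tissue and kit cannot be told apart.

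Tested as a difference between tissues, the change from 6 to 72 h was more positive in root than in leaf at 2704 identifiers (9.9%) and more negative at 3495 (12.8%) of 27323. Among the root rises 517 were more positive in root (28.2%) and 81 more negative. Among the root falls 852 were more negative in root (39.4%) and 33 more positive. The members were chosen by their change in root, so a lean in that direction is built in. Os02g0824100, the leading fall in root, went in leaf from 0.0845 ± 0.0996 CPM at 6 h to 2.77 ± 2.46 CPM at 72 h (SD, n = 3; edgeR adjusted p = 0.105), and the difference between the tissues was called (adjusted p = 0.000791). Os05g0382200 had 8 reads over the 3 leaf libraries of 6 h and 100 over those of 72 h, and Os01g0968100 had 0 and 8.

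The leaf numbers also moved with single libraries. Without leaf WT 72 h replicate 3, 3032 identifiers were called in leaf and 3334 in the difference between tissues. Without leaf WT 6 h replicates 1 and 3, each left out in turn, the leaf calls numbered 4213 and 4682. Fitting just the groups compared gave 3047 in leaf. The 684 identifiers called in the same direction in root and leaf became 398 if replicate 3 of leaf WT 72 h was dropped, 443 if replicate 1 of leaf WT 6 h was, and 454 without root WT 72 h replicate 3. Dropping replicate 1 of root WT 72 h gave 374, and dropping replicate 3 of root WT 6 h gave 421. They became 173, against 178 in opposite directions, with the compared groups alone.

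**Figure D5:**
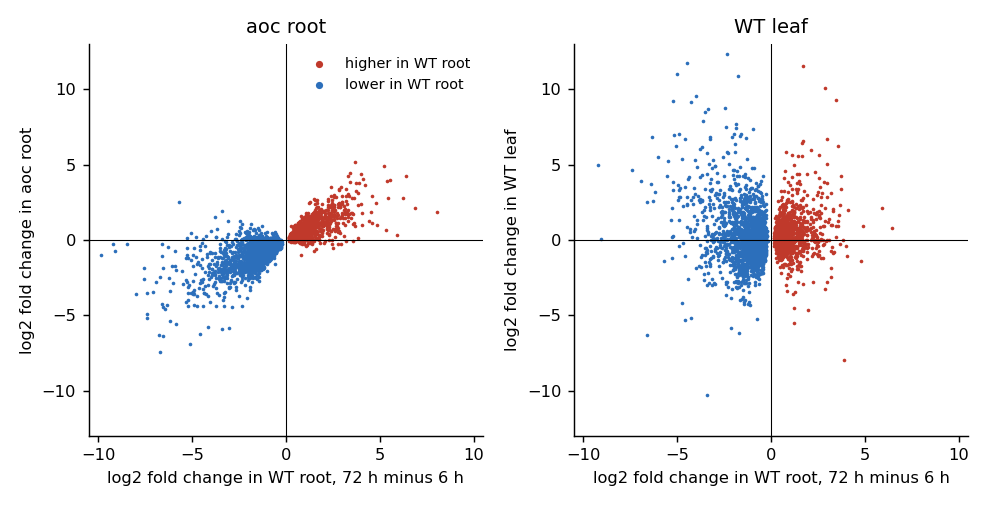
Log2 fold change from 6 to 72 h in aoc root (left) and WT leaf (right), on the vertical axes, against that in WT root, on the horizontal axes, for the identifiers called higher (red) or lower (blue) in WT root. In aoc root 95.5% of the red points lie above 0 and 93.8% of the blue points below it, while in leaf both colours spread to both sides of 0. Over all tested identifiers in aoc root, not drawn, 49.7% were above 0 and 50.2% below.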

How the data were processed

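Per the labels, an RNeasy kit was used for root RNA and Tri-Reagent for leaf RNA, the RIN was 6 or more, and libraries were read as 150 bp pairs. The values are raw read counts per gene, deposited by the authors in 1 table of 35667 identifiers and 48 columns. Per the submitters' processing notes, fastp, HISAT2, DESeq2 and the build IRGSP-1.0 were used. Tool versions, counting tool, strand setting and annotation release: not given in the sources used here. Every row names a gene. The reference table is of another assembly and holds 1 of the identifiers, so 39 gene lists drawn up by product and symbol (0 members matched) were not used, and the named identifiers are the 2 largest rises and falls that were called, reached 5 CPM and did not overlap between hours. Members at other ranks and the neighbour runs were described after their values were seen.

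Counts were fitted in R 4.3.3 with edgeR 4.0.16 on limma 3.58.1 (robust quasi-likelihood, TMM scaling, low counts filtered with filterByExpr over the groups). The 24 libraries of a tissue, or all 48 for the difference between tissues, entered 1 fit of group means. Every adjusted p is Benjamini-Hochberg within its comparison, and SE was taken as the log2 fold change divided by the square root of F. TMM factors scale all CPM, and log2 CPM has a prior count of 2. The floor of 3 counts lay at 0.0799 to 0.103 per 1 M of the total before TMM scaling in the 6 libraries. Intervals are exact (Clopper-Pearson) and cover counting error only, as the reads carry no molecular identifiers. The fitting script was tested on simulated data. It recovered 70 of 100 changes of 2-fold and 100 of 100 of 4-fold, with 8 false calls over 25728 identifiers. The simulation gave all identifiers the same spread and changed only well-counted ones, so it does not show the error rates in these libraries. Replicates of an hour were no copies of each other (chi-square per degree of freedom 37.2 to 68.2). The labels call them biological replicates without saying whether they came from separate cultures, so p-values measure the spread between these libraries. Alternatives were DESeq2 1.42.0, RLE size factors, keeping all identifiers with a read, a replicate block, fitting only the groups compared, and dropping single libraries in turn. The members, lists and tests were chosen with earlier results of these data known.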

Additional observations from a re-analysis of the deposited data

Results flagged for a closer look

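The change from 6 to 72 h differed between WT root and WT leaf at 6199 of 27323 identifiers by edgeR's interaction test (adjusted p under 0.05), with 2704 more positive in root and 3495 more negative. Kit and tissue go together in these libraries. Leaving out replicate 3 of leaf WT 72 h gave 3334, and fitting only the 4 groups compared gave 3263.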

How the results depend on the processing

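DESeq2, RLE size factors and a fit without the low-count filter kept each count of calls within 1.5 times its value, except the genotype difference, which went from 0 to 23 with DESeq2. The replicate block gave 5333 calls in WT root, 3672 in aoc root, 2 in the genotype difference and 1043 common to root and leaf. The replicate numbers were not taken to pair the libraries, though the block raised the calls in both genotypes. Deviations from the group means of same-numbered 6 and 72 h libraries correlated at 0.26, -0.03 and 0.23 in WT root. In aoc root they correlated at 0.21, -0.15 and 0.18. Differently numbered libraries correlated at -0.26 to 0.05 in WT root and -0.35 to 0.26 in aoc root. Whether same-numbered libraries share a source was not tested. With the compared groups alone, counts were 1917 in WT root, 297 in aoc root, 3047 in leaf, 3263 in the tissue difference, 181 common to both genotypes and 173 common to both tissues. Leaving out 1 library gave 2469 to 3864 calls in WT root, 845 to 2173 in aoc root, 0 to 12 in the genotype difference, 3032 to 8718 in leaf and 3334 to 7903 in the tissue difference. It gave 645 to 1434 common to both genotypes and 374 to 800 common to both tissues, 2 counts whose alternatives were added after seeing the data. Identifiers whose 0 h level lay nearer to 72 h numbered 2471, and 1497 to 2513 with 1 library left out. Over all alternatives run they were 57.5% to 67.5% of the calls. The cause of these moves was not tested. Of 44 refits of the 4 printed identifiers, 43 kept direction and call, 1 lost the call (Os05g0162800, adjusted p = 0.0535 with the compared groups alone) and 0 reversed. Gene lists gave no value because no identifier was matched. Depth limits statements on identifiers near 0.1 CPM.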

Other observations

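Each of the 12 chromosomes held changes in both directions. The share of tested identifiers that rose in WT root from 6 to 72 h was between 6.46% on chromosome 6 and 8.0% on chromosome 12. The share that fell was between 7.39% on chromosome 11 and 9.36% on chromosome 1. Of the tested identifiers, 35 had no read over the 3 libraries of 72 h but reads at 6 h, and 13 of these were called lower. Those with no read at 6 h but reads at 72 h numbered 23, of which 2 were called higher. The direction in both sets follows from how they were picked. Of all tested identifiers, 8.26% were called lower and 6.99% higher.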
